A study of Mus musculus with 12 samples.

Results

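The receptor tyrosine kinases most often named in glioma were followed across neurospheres that carried wild-type or mutant *ACVR1* with or without a mutant histone. The set was fixed by name and held 10 genes, the PDGF receptors *Pdgfra* and *Pdgfrb*, the ERBB receptors *Egfr*, *Erbb2* and *Erbb3*, the hepatocyte growth factor receptor *Met*, the FGF receptors *Fgfr1* and *Fgfr2*, the insulin-like growth factor receptor *Igf1r* and the neurotrophin receptor *Ntrk2*. All 10 were found by Ensembl identifier among the 54532 genes counted. RNAseq had been performed on 12 samples in 4 groups of 3. Every group consisted of brainstem progenitors of C57BL/6 pups aged P3-P5 that were p53 floxed and carried Nestin TVA, a transgene that places the receptor for RCAS viruses under the nestin promoter, so that the viruses reach nestin-expressing cells. The *ACVR1* WT group received human wild-type *ACVR1* from an RCAS vector, and the *ACVR1* R206H group received the R206H form of this BMP type I receptor. The remaining groups received H3.1K27M in addition, with *ACVR1* WT or with *ACVR1* R206H, the last of which is called the double mutant here. No group lacked an *ACVR1* vector, and no Cre vector is named for these cultures. All cultures were grown with EGF and FGF2, which are themselves ligands of receptors in the set.

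Receptor tyrosine kinases span the membrane once, pair up when a ligand binds outside the cell, and phosphorylate each other on tyrosines that recruit adaptors of the RAS and PI3K pathways. In the developing brain, PDGFRα marks and drives oligodendrocyte precursors, EGFR and the FGF receptors sustain neural progenitors, and the truncated form of TrkB, the product of *Ntrk2*, is abundant in astrocytes. H3.1K27M replaces lysine by methionine in histone H3.1 and lowers the Polycomb mark H3K27me3. The comparisons asked how each receptor transcript differed between *ACVR1* R206H and *ACVR1* WT in either histone background, and between cultures with and without H3.1K27M in either *ACVR1* background.

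The total count per sample lay between 19315020 and 26456257. Within the groups the biological coefficient of variation across genes was 0.275 for *ACVR1* WT and between 0.0453 and 0.0594 for the other groups, and *ACVR1* WT replicate 1 stood apart from the other samples of its group. Where receptor calls and gene list counts that rest on the *ACVR1* WT group are printed, they are therefore given with and without it. Reads assigned to mouse *Acvr1* moved with the groups, with 46.4 to 53.5 CPM (the count scaled to the library size) in *ACVR1* WT, 81.9 to 114 in *ACVR1* R206H, 162 to 364 in *ACVR1* WT with H3.1K27M and 561 to 1057 in *ACVR1* R206H with H3.1K27M. None of these ranges overlapped, so that the amount of *ACVR1* transcript cannot be told apart from R206H or H3.1K27M in any comparison of groups. The gene counts do not separate vector from endogenous transcripts, and the part of this difference in the receptor results was not tested. All 10 neural progenitor markers were detected, with a summed level of 4486 to 6351 CPM over the 12 samples. Oligodendrocyte lineage markers summed to between 3099.8 and 4405 CPM and astrocyte markers to between 5153 and 15398 CPM. Endothelial markers summed to at most 1.61 CPM, with *Cldn5* at 0 in 3 of the groups. In bulk samples, fewer cells of a type and less RNA per cell cannot be told apart. The labels do not say whether the 3 samples of a group were separate cultures, so that p-values measure the spread between these samples only.

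The receptors covered a wide range of levels, and 4 of them carried most of the signal. On the scale of CPM per kb of exon, which allows levels to be compared between genes, *Ntrk2* was the highest receptor in every group, with a mean level of 125 ± 58.3 CPM per kb (SD, n = 3) in *ACVR1* WT and 62.6 ± 5.03 CPM per kb in *ACVR1* R206H with H3.1K27M. It held 38.5% to 68.9% of the summed level per kb of the 10 receptors over the 12 samples. *Egfr*, *Pdgfra* and *Fgfr1* followed, with group means between 13.6 and 42.4 CPM per kb. In *ACVR1* WT these 3 receptors overlapped with their neighbours in the order. The order changed at the second place. *Egfr* held it in the first 3 groups, but in *ACVR1* R206H with H3.1K27M *Fgfr1* had a level of 38.3 ± 0.986 CPM per kb against 25.6 ± 2.70 for *Egfr*, and the samples of these 2 genes did not overlap. *Igf1r*, *Erbb2* and *Fgfr2* formed a middle tier with group means from 2.71 to 6.91 CPM per kb. Their order also changed, since *Igf1r* headed the tier without H3.1K27M, where its samples overlapped with those of *Erbb2*, and had the lowest mean in it with H3.1K27M, where its samples overlapped with those of *Fgfr2* in *ACVR1* WT but with neither neighbour in the double mutant. *Met*, *Erbb3* and *Pdgfrb* were at the bottom in every group. *Met* had group means of 1.13 to 1.31 CPM per kb and *Erbb3* of 0.193 to 0.459 CPM per kb. *Pdgfrb*, the receptor of pericytes and fibroblasts, had between 1 and 25 counts in any sample.

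**Figure D1:**
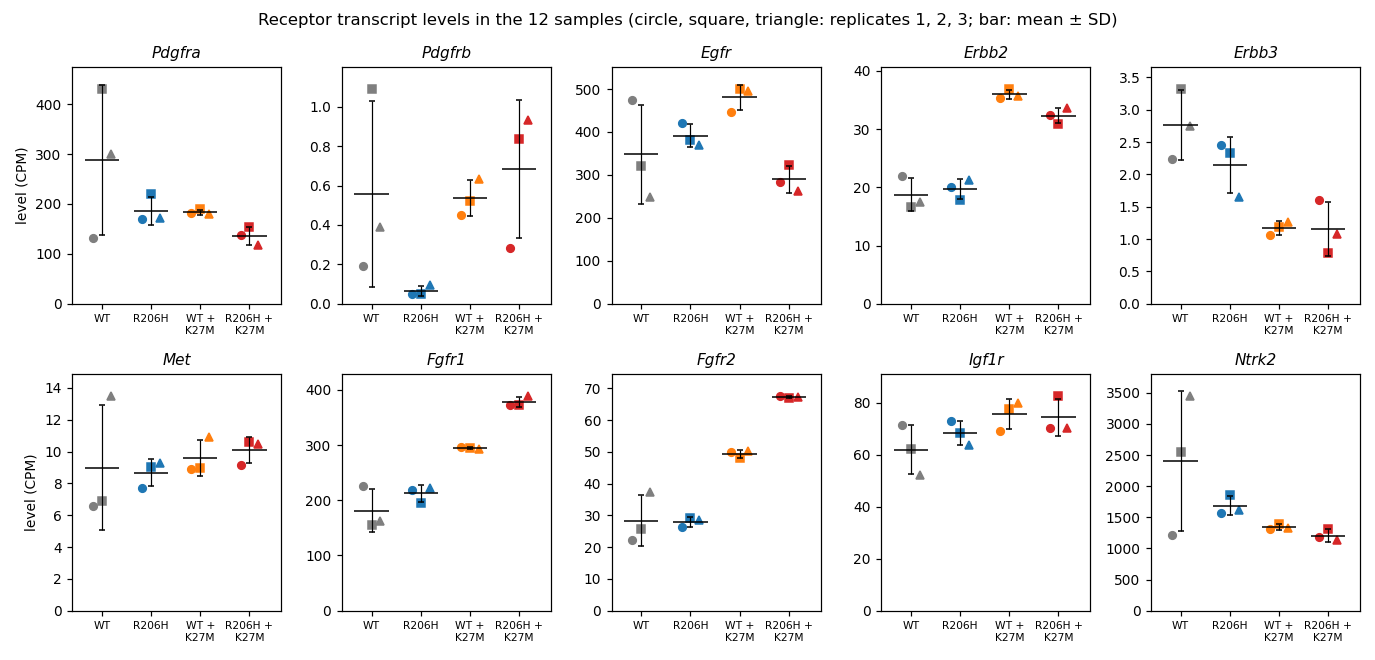
Level of each of the 10 receptors in CPM (vertical axes, each starting at 0) in the 4 groups on the horizontal axes, with circles, squares and triangles for replicates 1, 2 and 3 and a black bar for the mean ± SD. *Fgfr1*, *Fgfr2* and *Erbb2* stand higher and *Erbb3* lower in every sample with H3.1K27M than in any sample without it, while the *ACVR1* WT samples are spread widely for *Ntrk2* and *Pdgfra*.

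The promoters of these receptors differed in their CpG content, which is shown because CpG-dense promoters are the usual sites of Polycomb binding in mouse cells. The RefSeq promoter table for GRCm38.p6 held 7 of the 10 receptors. The 250 bases before the start are printed for the 4 receptors whose RefSeq start lay within 60 bases of the GENCODE start, written 5′ to 3′ in the direction of transcription with every CpG in capitals.
*Erbb2* (chr11:98412234-98412483, plus strand): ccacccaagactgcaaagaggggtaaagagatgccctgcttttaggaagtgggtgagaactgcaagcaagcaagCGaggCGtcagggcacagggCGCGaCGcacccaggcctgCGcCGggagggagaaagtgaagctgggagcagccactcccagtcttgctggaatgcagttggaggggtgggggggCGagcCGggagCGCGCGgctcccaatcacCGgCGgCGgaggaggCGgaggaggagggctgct
*Ntrk2* (chr13:58806319-58806568, plus strand): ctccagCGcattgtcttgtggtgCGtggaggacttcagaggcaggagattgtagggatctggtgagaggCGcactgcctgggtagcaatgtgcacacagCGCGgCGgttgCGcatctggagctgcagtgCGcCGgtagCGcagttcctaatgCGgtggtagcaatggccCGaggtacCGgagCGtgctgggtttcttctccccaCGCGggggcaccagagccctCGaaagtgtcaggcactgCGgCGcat
*Egfr* (chr11:16751953-16752202, plus strand): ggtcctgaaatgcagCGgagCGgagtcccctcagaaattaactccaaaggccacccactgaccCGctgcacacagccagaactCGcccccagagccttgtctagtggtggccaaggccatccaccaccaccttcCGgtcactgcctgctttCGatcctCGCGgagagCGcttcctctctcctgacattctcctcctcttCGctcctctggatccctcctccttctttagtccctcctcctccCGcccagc
*Pdgfra* (chr5:75152001-75152250, plus strand): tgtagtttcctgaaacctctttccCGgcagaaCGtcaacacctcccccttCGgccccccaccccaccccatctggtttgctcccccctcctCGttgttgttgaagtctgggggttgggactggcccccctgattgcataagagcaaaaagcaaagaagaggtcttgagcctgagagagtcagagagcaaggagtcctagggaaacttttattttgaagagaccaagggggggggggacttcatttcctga
*Ntrk2* and *Erbb2*, which moved in opposite directions with H3.1K27M in the *ACVR1* R206H background, both had CpG-rich windows, with 19 and 16 CpGs. The *Egfr* window had 11 CpGs and the *Pdgfra* window 4, against a median of 6 over the 32851 promoters of the table. Among the other receptors, *Igf1r* had 42 CpGs, *Met* 24 and *Fgfr2* 2, but their RefSeq starts lay 570, 157 and 2856542 bases from the GENCODE starts, so that these windows may not be the ones in use. The motif GGCGCC, a SMAD1/5-type site that reads the same on both strands, was found in the *Met* window only, and 9.59% of all promoters held it. The STAT-type motif TTCNNNGAA, also palindromic, was found in none of the 7 windows, and 7.02% of all promoters held it.

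H3.1K27M with *ACVR1* WT came with higher *Erbb2*, *Fgfr1* and *Fgfr2* and lower *Erbb3*. These 4 of 10 receptors passed edgeR's quasi-likelihood test at an adjusted p below 0.05, against a background of 23.0% of all genes tested. ERBB2 has no ligand of its own and acts as the preferred partner of the other ERBB receptors. *Erbb2* (mm10, as for all positions given, chromosome 11, positions 98412470 to 98437716) had levels of 22.0, 16.7 and 17.5 CPM in *ACVR1* WT replicates 1, 2 and 3 and of 35.3, 36.9 and 35.7 CPM after H3.1K27M was added. All 3 samples with H3.1K27M were above all 3 without it. The log2 fold change was 0.95 (SE 0.12, adjusted p = 0.0047 by edgeR), a 1.93-fold rise. *Erbb3* (chromosome 10, positions 128567523 to 128589652), a neuregulin receptor with a weak kinase that signals through its partners, went the other way, from 2.23, 3.32 and 2.74 CPM to 1.06, 1.19 and 1.27 CPM. The groups did not overlap, and the level was 2.32-fold lower with H3.1K27M (log2 fold change -1.22, SE 0.21, adjusted p = 0.012 by edgeR) on 25 to 64 counts per sample. It did not pass with DESeq2 and a replicate block (adjusted p = 0.053).

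Both FGF receptors rose. *Fgfr1* (chromosome 8, positions 25513654 to 25575718), the main FGF2 receptor of neural progenitors, had 226, 156 and 162 CPM in *ACVR1* WT and 297, 295 and 293 CPM with H3.1K27M, a log2 fold change of 0.71 (SE 0.15, adjusted p = 0.02 by edgeR). *Fgfr2* (chromosome 7, positions 130162451 to 133123350, a gene model that shares 314 exon bases with *Ctbp2*) had 22.2, 25.6 and 37.3 CPM without and 50.0, 48.0 and 50.1 CPM with H3.1K27M, a log2 fold change of 0.81 (SE 0.19, adjusted p = 0.027 by edgeR). For both genes every sample with H3.1K27M lay above every sample without it. *Egfr* did not pass the test, with 475, 321 and 248 CPM without and 447, 500 and 495 CPM with H3.1K27M, where replicate 1 of *ACVR1* WT lay within the range of the H3.1K27M samples. *Ntrk2* had 1309, 1399 and 1322 CPM with H3.1K27M, within the wide range of 1217 to 3450.5 CPM without it. *Pdgfra* and *Ntrk2* thus overlapped between the groups, with log2 fold changes of -0.64 (SE 0.39, adjusted p = 0.28 by edgeR) and -0.83 (SE 0.36, adjusted p = 0.14). *Ntrk2* passed as lower with DESeq2 (adjusted p = 0.048) and with all 12 samples in 1 edgeR fit (adjusted p = 0.03). *Igf1r*, *Met* and *Pdgfrb* had log2 fold changes of 0.30, 0.10 and -0.02 and did not pass by edgeR. Limma voom with sample weights called 8 of the 10 receptors, beside 9234 of 15385 genes, with *Egfr*, *Igf1r*, *Pdgfra* and *Ntrk2* added.

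Without *ACVR1* WT replicate 1, the log2 fold changes of *Erbb2*, *Erbb3*, *Fgfr1* and *Fgfr2* were 1.08, -1.35, 0.90 and 0.66, and 8 of the 10 receptors passed, against 52.6% of all genes, with *Egfr* (log2 fold change 0.77) and *Igf1r* (0.41) added to those that rose and *Pdgfra* (-0.98) and *Ntrk2* (-1.15) to those that fell. Without *ACVR1* WT replicate 2, 2 of the 9 receptors then tested passed, beside 1445 of 15436 genes. Without any 1 of the 3 *ACVR1* WT samples with H3.1K27M, 1 of 10 receptors passed, *Erbb2*, beside 1037 to 1189 of 15311 to 15386 genes.

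H3.1K27M with *ACVR1* R206H came with changes in 7 of the 9 receptors tested, of which 3 rose and 4 fell, against a background of 56.5% of all genes, so that most genes passed in this comparison. Among these 9, *Fgfr2* showed the widest difference, from 26.2, 29.1 and 28.6 CPM in *ACVR1* R206H to 67.6, 66.8 and 67.3 CPM with H3.1K27M, a log2 fold change of 1.28 (SE 0.05, adjusted p = 4.6e-09 by edgeR). *Fgfr1* went from 219, 195 and 223 CPM to 373, 372 and 389 CPM (log2 fold change 0.84, SE 0.05, adjusted p = 9.6e-08). *Erbb2* went from 20.0, 17.9 and 21.2 CPM to 32.5, 30.9 and 33.6 CPM (log2 fold change 0.73, SE 0.07, adjusted p = 4.4e-06). None of these 3 receptors overlapped between the groups, and all 3 had also risen with H3.1K27M in the *ACVR1* WT background.

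The 4 receptors that fell with H3.1K27M in the *ACVR1* R206H background were *Erbb3*, *Ntrk2*, *Pdgfra* and *Egfr*. *Erbb3* fell from 2.45, 2.33 and 1.65 CPM to 1.61, 0.791 and 1.08 CPM (log2 fold change -0.88, SE 0.27, adjusted p = 0.017 by edgeR), with replicate 1 of the double mutant just below replicate 3 of *ACVR1* R206H. *Ntrk2* (chromosome 13, positions 58806569 to 59133970) fell from 1568, 1855 and 1623 CPM to 1179, 1316 and 1128 CPM (log2 fold change -0.47, SE 0.07, adjusted p = 1.3e-04). *Pdgfra* (chromosome 5, positions 75152292 to 75198215) fell from 169, 219 and 172 CPM to 137, 154 and 118 CPM (log2 fold change -0.44, SE 0.10, adjusted p = 0.003). *Egfr* (chromosome 11, positions 16752203 to 16918158) fell from 422, 382 and 370 CPM to 283, 323 and 263 CPM (log2 fold change -0.42, SE 0.07, adjusted p = 3.2e-04). In each of the 4, every sample with H3.1K27M was below every sample without it. *Igf1r* (log2 fold change 0.13, adjusted p = 0.12 by edgeR) and *Met* (0.23, adjusted p = 0.077) did not pass. With all 12 samples in 1 fit, which shares the wide spread of *ACVR1* WT, *Ntrk2*, *Pdgfra* and *Egfr* no longer passed (adjusted p = 0.19, 0.28 and 0.087 by edgeR). *Erbb3* did not pass without *ACVR1* R206H replicate 1, or without replicate 2 or 3 of the double mutant (adjusted p = 0.064, 0.062 and 0.055), nor with DESeq2 and a replicate block (adjusted p = 0.073).

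**Figure D2:**
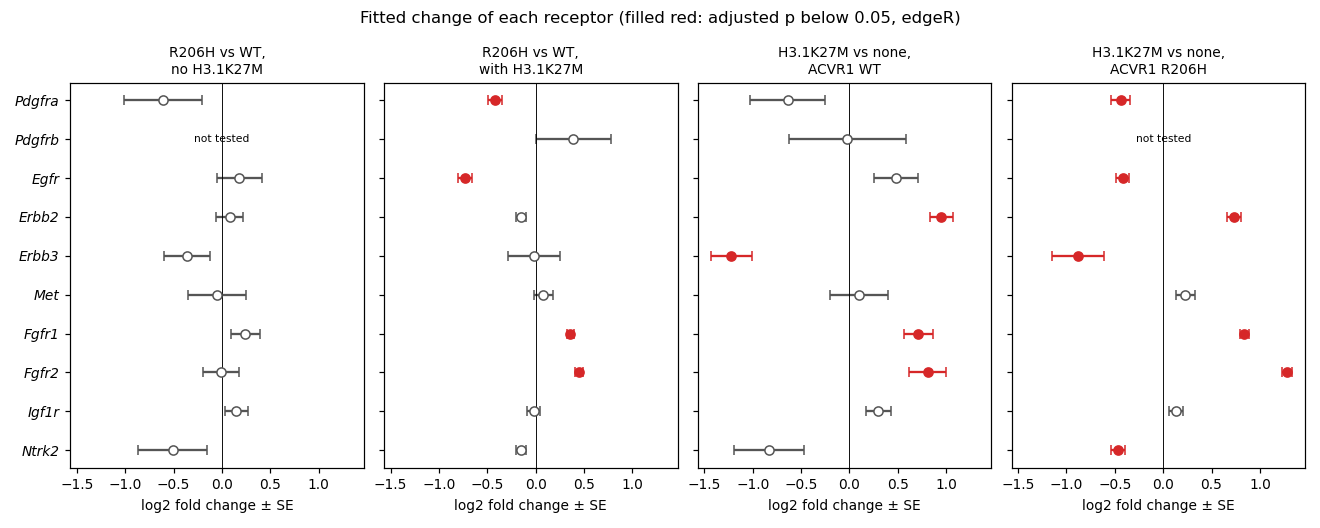
Log2 fold change ± SE (horizontal axes) of each receptor in the 4 comparisons, 3 samples against 3, with filled red points where edgeR's adjusted p was below 0.05; *Pdgfrb* was not tested in 2 of them because its mean count was under 10. *Fgfr1*, *Fgfr2* and *Erbb2* lie to the right and *Erbb3* to the left in both H3.1K27M panels, while *Egfr* lies at 0.48 in one and -0.42 in the other.

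Among cultures with H3.1K27M, the change from *ACVR1* WT to *ACVR1* R206H came with less *Egfr* and *Pdgfra* and more *Fgfr1* and *Fgfr2*. These 4 of 10 receptors passed, against a background of 20.3% of all genes. *Egfr* had 447, 500 and 495 CPM in *ACVR1* WT with H3.1K27M and 283, 323 and 263 CPM in *ACVR1* R206H with H3.1K27M, a 1.65-fold lower level (log2 fold change -0.73, SE 0.07, adjusted p = 1.0e-05 by edgeR). *Pdgfra* had 182, 189 and 179 CPM against 137, 154 and 118 CPM, a 1.34-fold lower level (log2 fold change -0.42, SE 0.07, adjusted p = 0.0013). In the same comparison 9 of 13 oligodendrocyte lineage markers were lower and 0 higher, among them *Gpr17* (-1.02) and *Sox10* (-0.47), and their part in the *Pdgfra* difference was not tested. *Fgfr2* was 1.37-fold higher (log2 fold change 0.45, SE 0.04, adjusted p = 1.6e-05) and *Fgfr1* 1.29-fold higher (log2 fold change 0.36, SE 0.04, adjusted p = 2.0e-05), with the sample values given above. The groups did not overlap for any of these 4 receptors. *Erbb2* was lower in every double mutant sample but did not pass (log2 fold change -0.15, adjusted p = 0.077 by edgeR and 0.041 by limma voom), and *Ntrk2* overlapped between the groups (-0.15, adjusted p = 0.063). *Ntrk2* lay near the threshold, and it passed with DESeq2 (adjusted p = 0.043), library totals alone (0.049), limma voom (0.0079), no minimum count (2.7e-04) and a replicate block (0.017 in edgeR and 0.012 in DESeq2), and without replicate 2 of the double mutant (0.0036). *Pdgfrb*, *Erbb3*, *Met* and *Igf1r* had log2 fold changes of 0.39, -0.02, 0.08 and -0.02 and did not pass. With all 12 samples in 1 fit none of the receptors passed, with adjusted p = 0.068 for *Egfr*, 0.6 for *Pdgfra*, 0.15 for *Fgfr2* and 0.16 for *Fgfr1* by edgeR, while the 4 calls held without each replicate in turn. *Acvr1* reads were higher in every *ACVR1* R206H sample with H3.1K27M than in any *ACVR1* WT sample with it. The amount of *ACVR1* transcript and the R206H change cannot be told apart here, and the same limit holds for the H3.1K27M comparisons.

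Without H3.1K27M, none of the 9 receptors tested passed between *ACVR1* R206H and *ACVR1* WT. This count of 0 came from edgeR, which called 0% of all genes, and no receptor was among the 534 of 15066 genes with an unadjusted p under 0.05 (0 of 9). DESeq2 called 0 receptors and 0.173% of all genes, and limma voom with sample weights called 4 receptors and 24.4% of all genes. *Pdgfra* had 131, 430.3 and 301 CPM in *ACVR1* WT and 169, 219 and 172 CPM in *ACVR1* R206H, and *Ntrk2* had 1217, 2554 and 3450.5 CPM against 1568, 1855 and 1623 CPM. In both genes replicate 1 of *ACVR1* WT lay below all *ACVR1* R206H samples and the other replicates above them. Without that replicate 4 receptors passed, against 23.1% of all genes, namely *Pdgfra* (log2 fold change -0.96, adjusted p = 0.0063 by edgeR) and *Ntrk2* (-0.82, adjusted p = 0.0067), which were lower with R206H, and *Fgfr1* (0.43, adjusted p = 0.0069) and *Egfr* (0.47, adjusted p = 0.021), which were higher. With 2 samples left in the *ACVR1* WT group, these values rest on a spread shared with the other group.

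The test of whether R206H acted differently with and without H3.1K27M called 0 of 9 receptors by edgeR, against 0.0712% of all genes. The unadjusted p was under 0.05 for 2 receptors and for 1183 of 15445 genes. *Egfr* had a log2 fold change with R206H of 0.18 without H3.1K27M and of -0.73 with it, and the difference of -0.90 (SE 0.26) had an adjusted p of 0.44 by edgeR. *Fgfr2* had -0.01 and 0.45, with a difference of 0.47 (SE 0.21, adjusted p = 0.64). DESeq2 called 0 receptors and 0.711% of the genes to which it gave an adjusted p. With a replicate block DESeq2 called 1 receptor, *Egfr* (-0.93, adjusted p = 0.045), and 85 of 15445 genes. Limma voom with sample weights called 5 receptors and 29.5% of all genes. Without *ACVR1* WT replicate 1, 5 of the 10 receptors then tested passed, against 26.6% of all genes. *Egfr* (-1.19, adjusted p = 1.2e-04 by edgeR) and *Erbb2* (-0.35, adjusted p = 0.023) had a negative difference. *Ntrk2* (0.69, adjusted p = 0.004), *Fgfr2* (0.62, adjusted p = 0.0068) and *Pdgfrb* (3.74) had a positive one, that of *Pdgfrb* on 1 to 2 counts in each *ACVR1* R206H sample. *Pdgfrb* reached the count filter only through the other groups, so its call carries no weight.

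The *ACVR1* WT sample with the least *Ntrk2* and *Pdgfra* also had the lowest summed level of astrocyte markers. The summed level of the 8 astrocyte markers was 5153, 11041 and 15398 CPM in *ACVR1* WT replicates 1, 2 and 3, beside *Ntrk2* levels of 1217, 2554 and 3450.5 CPM and *Pdgfra* levels of 131, 430.3 and 301 CPM in the same samples. In *ACVR1* R206H the markers summed to between 7934 and 9027 CPM, in *ACVR1* WT with H3.1K27M to between 5507 and 5749 CPM and in the double mutant to between 6761 and 6808 CPM. The 8 markers did not all move one way. With H3.1K27M 0 were higher and 2 lower in *ACVR1* WT (median log2 fold change -0.49), or 1 higher and 5 lower without *ACVR1* WT replicate 1 (median -0.70), beside 23.0% and 52.6% of all genes called. In *ACVR1* R206H 2 were higher and 4 lower with H3.1K27M (median -0.19), beside 56.5% of all genes. Between the *ACVR1* forms with H3.1K27M 4 were higher and 1 lower with R206H (median 0.07), beside 20.3% of all genes, and without H3.1K27M 0 passed by edgeR, 0 had an unadjusted p under 0.05 and DESeq2 called 0, while 0 were higher and 6 lower without *ACVR1* WT replicate 1. Between the *ACVR1* forms without H3.1K27M, 0 of 13 oligodendrocyte lineage markers passed by edgeR and 0 by DESeq2. An unadjusted p under 0.05 was found for 4 of them, beside 534 of 15066 genes. Without *ACVR1* WT replicate 1, when *Pdgfra* passed as lower, 7 were lower and 0 higher, beside 23.1% of all genes. For H3.1K27M in *ACVR1* R206H, where *Pdgfra* also passed as lower, 7 of these 13 markers were higher and 4 lower (median log2 fold change 0.30), beside 56.5% of all genes, and in *ACVR1* WT 1 was higher and 3 lower (median 0.12), or 3 and 6 (median -0.13) without replicate 1. The part of astrocyte-like and oligodendrocyte lineage cells in the *Ntrk2* and *Pdgfra* values was not tested. Over the 12 samples Pearson's r of log2 CPM was 0.88 between *Pdgfra* and *Ntrk2* and 0.90 between *Erbb2* and *Fgfr1*, and it was -0.89 between *Erbb2* and *Erbb3*. These correlations describe 12 samples in 4 groups and carry the group differences.

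**Figure D3:**
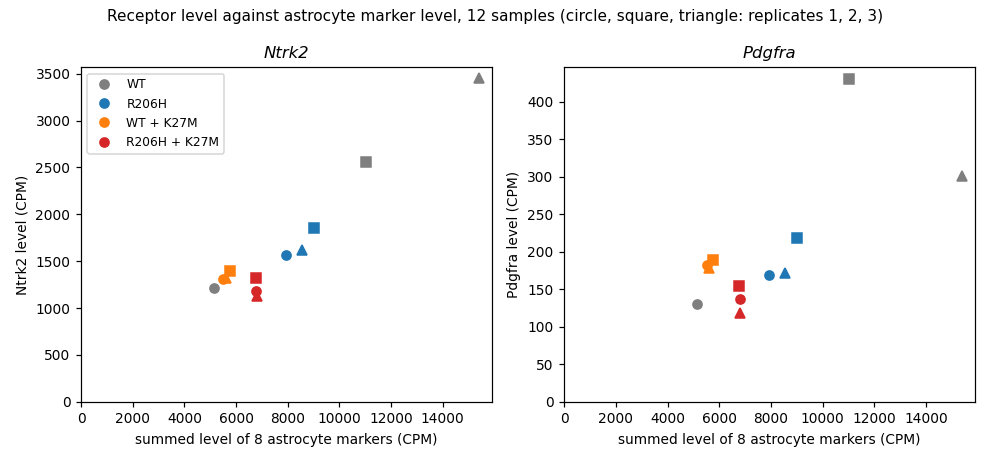
Level of *Ntrk2* (left) and *Pdgfra* (right) in CPM on the vertical axis against the summed CPM of 8 astrocyte markers on the horizontal axis, 1 point per sample, coloured by group with a shape per replicate. *ACVR1* WT replicates 2 and 3 lie far to the right at 11041 and 15398 CPM, while replicate 1 lies furthest left at 5153 CPM, below the 5507 to 6808 CPM of the samples with H3.1K27M.

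For the 9 receptors compared, the genes with the closest pattern over the 12 samples are listed, out of 15445 genes compared by Pearson's r of log2 CPM. These genes were picked for their high r, and the r values carry the group differences, so they serve as a description only. *Erbb2* was most like *Uqcr10* (r = 0.995), *Mcrip2* and *Igfbp4*, and *Fgfr1* was most like *Kdelr3* (r = 0.993), *Col5a3* and *Fam84b*. *Ntrk2* was most like *Txndc16* (r = 0.992), *Vamp4* and *Ncam1*. *Pdgfra* was most like *Cdh11* (r = 0.975), *Gdap1* and *March8*, and *Egfr* most like *Dcaf1* (r = 0.941), *Tacc2* and *Kcnj10*. The closest gene was *Kif3b* for *Fgfr2* (r = 0.990), *Cpeb4* for *Igf1r* (r = 0.977), *Scyl2* for *Erbb3* (r = 0.975) and *Oxsm* for *Met* (r = 0.934).

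*Fgfr3* fell with H3.1K27M as *Fgfr1* and *Fgfr2* rose, and *Erbb4* fell with *Erbb3* as *Erbb2* rose. Of 16 other receptors of the same families, 11 were tested for H3.1K27M with *ACVR1* WT, of which 2 rose and 4 fell (median log2 fold change 0.10, against -0.02 over all genes), and 12 with *ACVR1* R206H, of which 7 rose and 5 fell (median 0.24, against 0.00), beside 23.0% and 56.5% of all genes called. *Fgfr3*, an FGF receptor of astrocytes and radial glia, had 208, 279 and 247 CPM in *ACVR1* WT and 117, 121 and 121 CPM with H3.1K27M, and 212, 243 and 233 CPM in *ACVR1* R206H against 91.6, 96.0 and 91.1 CPM in the double mutant. It fell in both backgrounds (log2 fold changes -1.02 and -1.29, adjusted p = 0.0029 and 3.8e-09 by edgeR). Per kb of exon, *Fgfr3* was above *Fgfr1* without H3.1K27M (34.2 against 18.4 CPM per kb in *ACVR1* WT) and below it with H3.1K27M (16.7 against 29.9), with no overlap of the samples of the 2 genes in either group. *Fgfr4* was nearly silent in *ACVR1* WT, with 0 to 0.0977 CPM, and reached 2.09, 1.76 and 2.28 CPM in the double mutant. In the *ACVR1* R206H background it stood higher with H3.1K27M (log2 fold change 3.45). Its mean count reached the filter there only through the double mutant, so the direction of this call was set by the filter.

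*Erbb4*, a neuregulin receptor like *Erbb3*, had 112, 211 and 210.3 CPM in *ACVR1* WT and 56.2, 74.8 and 78.7 CPM with H3.1K27M (log2 fold change -1.33, adjusted p = 0.017 by edgeR). It had 162, 155 and 125 CPM in *ACVR1* R206H and 49.5, 59.4 and 43.8 CPM in the double mutant (log2 fold change -1.52, adjusted p = 2.7e-07). Per kb of exon, *Erbb4* stood above *Erbb2* in *ACVR1* WT (14.4 against 3.60 CPM per kb) and below it with H3.1K27M added (5.66 against 6.91), and again the samples of the 2 genes did not overlap in either group. Among neurotrophin receptors, *Ntrk3*, the receptor of NT-3, had 84.0, 101 and 86.1 CPM in *ACVR1* WT and 147, 158 and 164 CPM with H3.1K27M, and it rose in both backgrounds (log2 fold changes 0.80 and 0.81, adjusted p = 0.0036 and 6.1e-07). The 7 neuron markers summed to between 1203 and 1693 CPM in *ACVR1* WT and to between 745 and 784 CPM with H3.1K27M, but they did not move together. With *ACVR1* WT 1 rose (*Rbfox3*) and 2 fell (*Map2* and *Tubb3*), with a median log2 fold change of -0.90 and against 23.0% of all genes called, and 1 rose and 4 fell (median -1.0) against 52.6% when *ACVR1* WT replicate 1 was left out. With *ACVR1* R206H 4 rose and 2 fell (median 0.46), against 56.5% of all genes. Their summed level there was lower all the same, at 620.0 to 682 CPM with H3.1K27M against 1156 to 1420.0 CPM without it. Their part in the *Erbb4* difference was not tested. *Ntrk3* remained far below *Ntrk2* per kb, with a mean of 5.19 against 69.6 CPM per kb in *ACVR1* WT with H3.1K27M. *Kit*, a relative of the PDGF receptors, fell with H3.1K27M (log2 fold changes -2.10 and -0.90, adjusted p = 0.011 and 2.0e-05). When *ACVR1* WT replicate 1 was left out, the log2 fold changes with *ACVR1* WT were -1.12 for *Fgfr3*, -1.58 for *Erbb4*, 0.75 for *Ntrk3* and -2.41 for *Kit*. *Csf1r*, the receptor that microglia depend on, had 0.901 to 5.42 CPM in *ACVR1* WT and 0 to 0.143 CPM with H3.1K27M, and the 7 microglia markers summed to between 3.46 and 15.8 CPM in *ACVR1* WT and to between 1.31 and 1.90 CPM in *ACVR1* WT with H3.1K27M. Of the 4 tested in that background 3 were lower, also without *ACVR1* WT replicate 1, beside 23.0% and 52.6% of all genes called. Of the 2 tested with *ACVR1* R206H 1 was higher and 1 lower, beside 56.5% of all genes. *Csf1r* and the markers called lower reached the count filter through the samples without H3.1K27M, so the direction of these calls was set by the filter. The part of microglia in the *Csf1r* difference was not tested.

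**Figure D4:**
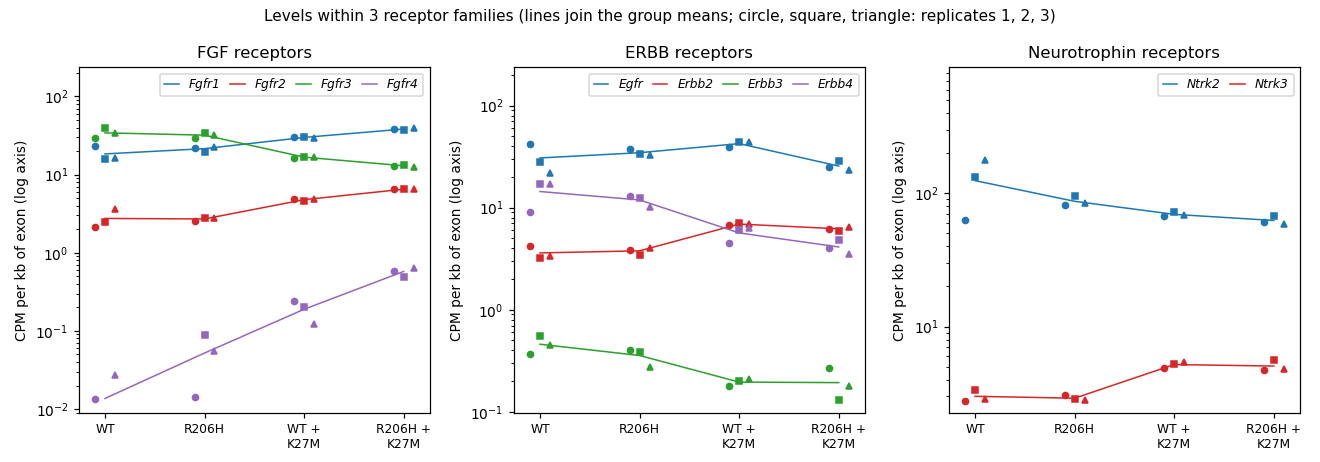
Level in CPM per kb of exon on log axes (vertical) for FGF, ERBB and neurotrophin receptors in the 4 groups (horizontal), with a point per sample and lines joining the group means; samples at 0 are not drawn. *Fgfr3* and *Fgfr1* change places between the groups without and with H3.1K27M, as do *Erbb4* and *Erbb2*, while *Ntrk2* stays above *Ntrk3* in every sample.

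Of 39 ligands of the receptors, 18 were tested for H3.1K27M with *ACVR1* WT, of which 4 rose and 1 fell (median log2 fold change 0.03, against -0.02 over all genes), beside 23.0% of all genes called. With *ACVR1* R206H 18 were tested, of which 9 rose and 3 fell (median 0.35, against 0.00), beside 56.5% of all genes called. *Nrg1*, the ligand of *Erbb3* and *Erbb4*, had 2.94, 1.61 and 1.27 CPM in *ACVR1* WT and 10.2, 11.8 and 14.4 CPM with H3.1K27M, a 6.28-fold rise (adjusted p = 0.0043 by edgeR), and went from 3.15, 3.46 and 2.71 CPM in *ACVR1* R206H to 14.1, 13.0 and 14.9 CPM in the double mutant (4.55-fold, adjusted p = 2.7e-08). *Nrg1* thus stood higher in the groups in which *Erbb3* and *Erbb4* stood lower. The EGFR ligands moved apart. *Hbegf* rose in both backgrounds (log2 fold changes 1.01 and 1.03, adjusted p = 0.0084 and 5.0e-08 by edgeR), and *Tgfa* fell (log2 fold changes -0.77 and -0.49, adjusted p = 0.025 and 3.6e-06). *Fgf1*, a ligand of all FGF receptors, rose from 33.4, 49.7 and 64.1 CPM to 111, 108 and 109 CPM with *ACVR1* WT (log2 fold change 1.17, adjusted p = 0.015) and by 1.47 on the log2 scale with *ACVR1* R206H (adjusted p = 1.9e-09). With *ACVR1* WT replicate 1 left out, the log2 fold changes in that background were 3.09 for *Nrg1*, 1.21 for *Hbegf*, -0.95 for *Tgfa* and 0.95 for *Fgf1*.

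With H3.1K27M present, *Pdgfd*, *Pdgfc*, *Pdgfa*, *Fgf1*, *Fgf2* and *Hbegf* were higher with R206H. Of 19 ligands tested, 6 were higher and 0 lower by edgeR's adjusted p (median log2 fold change 0.22, against 0.00 over all genes), beside 20.3% of all genes called in both directions. DESeq2 called 5 of the 19, without *Pdgfa* (adjusted p = 0.083). *Pdgfd*, a ligand of PDGFRβ, had 8.47, 6.95 and 6.02 CPM in *ACVR1* WT with H3.1K27M and 29.3, 26.9 and 29.4 CPM in the double mutant, a 4.01-fold difference without overlap (log2 fold change 2.01, SE 0.10, adjusted p = 6.5e-08 by edgeR). Its receptor *Pdgfrb* stayed at 0.285, 0.834 and 0.935 CPM in the double mutant. The 10 pericyte or fibroblast markers summed to between 18.7 and 20.8 CPM in *ACVR1* WT with H3.1K27M and to between 30.3 and 35.4 CPM in the double mutant, and their part in the *Pdgfd* difference was not tested. *Pdgfc*, a ligand of PDGFRα, had 16.5, 17.4 and 15.6 CPM against 26.2, 24.9 and 30.4 CPM (log2 fold change 0.73, SE 0.08, adjusted p = 5.0e-05), in the comparison in which *Pdgfra* fell. *Fgf2* had 9.53, 9.94 and 11.4 CPM against 16.3, 15.6 and 16.7 CPM (log2 fold change 0.66, SE 0.08, adjusted p = 1.3e-04). *Pdgfa* (0.23, adjusted p = 0.04), *Fgf1* (0.22, adjusted p = 0.0014) and *Hbegf* (0.19, adjusted p = 0.0065) were higher by smaller amounts. *Bdnf*, the ligand of TrkB, was at 2.95 to 5.08 CPM in all samples and did not pass in any of the 5 edgeR tests. *Hgf* reached at most 1.79 CPM and *Igf1* at most 3.57 CPM, *Pdgfb* and *Igf2* stayed under 1 CPM in every sample, and *Ntf3* had 0 CPM in 11 of 12 samples. Without H3.1K27M, 0 of 18 ligands passed by edgeR, 0 had an unadjusted p under 0.05 and DESeq2 called 0, whereas without *ACVR1* WT replicate 1, 3 were higher and 2 lower, beside 23.1% of all genes called. In the interaction test 0 of 18 passed by edgeR, and 3 had an unadjusted p under 0.05, beside 1183 of 15445 genes. DESeq2 called 1 ligand, *Pdgfd* (difference 1.41, SE 0.38, adjusted p = 0.38 by edgeR and 0.04 by DESeq2). Leaving out *ACVR1* WT replicate 1 gave 5 ligands with a positive and 2 with a negative difference, *Pdgfd* among the former (1.72, adjusted p = 1.4e-04 by edgeR), beside 26.6% of all genes.

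**Figure D5:**
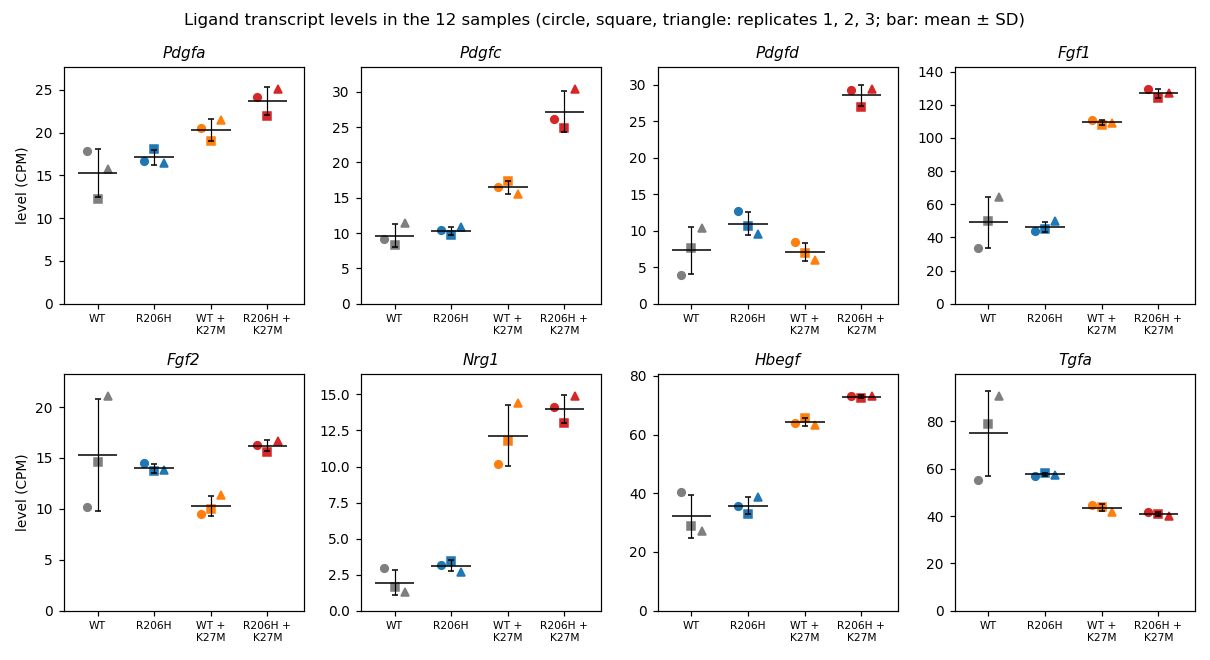
Level of 8 ligands in CPM (vertical axes, each starting at 0) in the 4 groups, with circles, squares and triangles for replicates 1, 2 and 3 and bars for the mean ± SD. *Pdgfd* stands near 28.6 CPM in the double mutant and below 13 CPM in every other sample, while *Nrg1*, *Hbegf* and *Fgf1* are high and *Tgfa* is low in both groups with H3.1K27M.

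Among genes that act downstream of the receptors, the share of adaptors called with H3.1K27M was near that of all genes (23.0% with *ACVR1* WT and 56.5% with *ACVR1* R206H). Of 38 adaptors and RAS-PI3K effectors, all tested, 4 rose and 5 fell with H3.1K27M in *ACVR1* WT, and 13 rose and 12 fell in *ACVR1* R206H (median log2 fold changes -0.01 and 0.00). *Hras* rose (log2 fold changes 0.76 and 0.67, adjusted p = 0.0034 and 2.2e-06 by edgeR) and *Nras* fell (-0.50 and -0.46, adjusted p = 0.012 and 2.5e-06). Of 24 receptor inhibitors and pathway brakes tested, 8 rose and 5 fell in *ACVR1* WT, and 12 rose and 9 fell in *ACVR1* R206H (medians 0.18 and 0.17). *Spry1*, a Sprouty protein that ERK signalling induces and that limits FGF receptor signalling, had 65.3, 18.2 and 8.50 CPM in *ACVR1* WT and 205, 179 and 181 CPM with H3.1K27M (log2 fold change 2.62, SE 0.70, adjusted p = 0.04). In *ACVR1* R206H it went from 49.1, 36.6 and 46.9 CPM to 216, 212 and 223 CPM (log2 fold change 2.31, SE 0.08, adjusted p = 1.8e-09). *Spry4* rose with it (log2 fold changes 2.29 and 1.74, adjusted p = 0.049 and 3.9e-09), while *Grb14*, an adaptor that binds and restrains receptors, fell (-1.23 and -1.06, adjusted p = 0.0017 and 6.2e-08). Without *ACVR1* WT replicate 1, in which *Spry1* and *Spry4* were highest, their log2 fold changes with *ACVR1* WT were 3.83 and 3.39, and those of *Hras*, *Nras* and *Grb14* were 0.84, -0.57 and -1.29.

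*Met* and *Igf1r* had small differences between the groups. *Igf1r* had 71.4, 62.3 and 52.3 CPM in *ACVR1* WT, 73.1, 68.3 and 63.8 CPM in *ACVR1* R206H, 69.0, 77.7 and 80.1 CPM in *ACVR1* WT with H3.1K27M and 70.4, 82.7 and 70.4 CPM in the double mutant. *Met* had 6.59, 6.90 and 13.5 CPM in *ACVR1* WT, where replicate 3 was above all other samples of the series, and between 7.70 and 10.9 CPM elsewhere. Neither *Met* nor *Igf1r* passed edgeR in any of the 5 tests on all samples of a comparison, while some proteins that bind IGF ligands did. With limma voom and sample weights, *Igf1r* passed for H3.1K27M with *ACVR1* WT (log2 fold change 0.33, adjusted p = 0.0035). Of 6 IGF-binding proteins tested, 2 rose and 0 fell with H3.1K27M in *ACVR1* WT (median log2 fold change 1.42), and 4 rose and 1 fell in *ACVR1* R206H (median 1.01), beside 23.0% and 56.5% of all genes called. *Igfbp4* had 44.7, 21.7 and 16.6 CPM in *ACVR1* WT and 327, 340.4 and 314 CPM with H3.1K27M (log2 fold change 3.57, SE 0.38, adjusted p = 0.0027), and *Igfbp2* had 707, 239 and 125 CPM against 1939, 1870.3 and 1701 CPM (log2 fold change 2.38, SE 0.61, adjusted p = 0.037). These log2 fold changes were 4.11 and 3.35 without *ACVR1* WT replicate 1. Leaving out that replicate moved the counts in the *ACVR1* WT background to 5 higher and 4 lower ligands of 17, 4 and 5 other family receptors of 11, 11 and 11 adaptors and effectors, 12 and 9 inhibitors and brakes, and 4 and 2 IGF-binding proteins, against 52.6% of all genes. Between the *ACVR1* forms without H3.1K27M, 0 of 38 adaptors and effectors, 0 of 24 inhibitors and brakes and 0 of 6 IGF-binding proteins passed by edgeR, and 0 in each list by DESeq2. At an unadjusted p under 0.05 the counts were 0, 1 and 0, beside 534 of 15066 genes. The edgeR counts became 4 higher and 1 lower, 11 higher and 2 lower, and 3 higher and 2 lower without *ACVR1* WT replicate 1, against 23.1% of all genes. With H3.1K27M present, 4 adaptors and effectors were higher and 2 lower with R206H, 6 inhibitors and brakes were higher and 0 lower, and 2 IGF-binding proteins were higher and 2 lower, with median log2 fold changes of 0.01, 0.05 and -0.01, beside 20.3% of all genes. Of the other receptors of the same families, 4 of 11 tested were higher and 2 lower in that comparison (median 0.22). Between the *ACVR1* forms without H3.1K27M, 0 of 10 of them passed by edgeR and 0 by DESeq2, with 1 at an unadjusted p under 0.05. Without *ACVR1* WT replicate 1, 3 were higher and 3 lower by edgeR, against 23.1% of all genes.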

How the data were processed

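RNA was measured in 12 samples, 3 from each of 4 groups taken from the sample labels. The authors aligned reads to mm10 (GRCm38) with STAR 2.6.0b-1 and deposited raw counts per gene from HTSeq, made without strand and with a minimum alignment quality of 10, so that exon bases shared with other genes (652 in *Pdgfra*, 314 in *Fgfr2*, 164 in *Fgfr1* and 9 in *Erbb2*) can lose or gain reads. Symbols, positions and exon lengths came from GENCODE M21 (54409 genes matched).

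CPM were computed with TMM factors over the 12 samples. Each comparison was fitted with edgeR 4.0.16 (quasi-likelihood, R 4.3.3) on its own samples, after genes whose scaled counts averaged under 10 had been removed. Adjustment was by Benjamini-Hochberg over all genes kept, with a threshold of 0.05. For a single gene, 3 samples against 3 cannot give an exact two-sided p below 0.1. Alternatives used DESeq2 1.42.0, limma voom 3.58.1 with sample weights, other normalizations and filters, a replicate block, all samples in 1 fit and each replicate left out. The fits were tested on simulated counts. The receptors and all lists were chosen with earlier results of these data known. Genes were named by rule: all receptors, up to 4 genes per list and direction with the smallest adjusted p, fixed ligands and the 3 genes most like each receptor. The lists also held cell type markers. Median-of-ratios size factors scaled the counts for the filter.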

Additional observations from a re-analysis of the deposited data

How the results depend on the processing

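Of 745 receptor log2 fold changes under the alternatives, 655 kept their direction and their side of the threshold, 36 came to pass it, 23 no longer passed, and 31 changed sign without passing in either fit. For R206H without H3.1K27M these were *Met* (0.03 and 0.02 with a replicate block in DESeq2 and edgeR, 0.20 with limma voom, and -0.23 to 0.37 with each replicate left out), *Fgfr2* (0.02 with a replicate block in either tool, 0.01 with library totals alone, 0.06 with limma voom, and -0.16 to 0.23), *Egfr* (-0.01 to 0.47) and *Erbb2* (from just below 0, which rounds to 0.00, to 0.21). With H3.1K27M they were *Erbb3* (0.04 with limma voom and -0.30 to 0.19) and *Igf1r* (-0.10 to 0.03). For H3.1K27M with *ACVR1* WT they were *Pdgfrb* (0.27 and 0.13 with a replicate block in DESeq2 and edgeR, 0.01 with library totals alone, and -0.43 to 0.10) and *Met* (-0.08 to 0.52). In the interaction they were *Met* (-0.13 with limma voom and -0.29 to 0.32), *Fgfr1* (-0.08 with limma voom and -0.05 to 0.23) and *Pdgfra* (-0.21 to 0.55). The causes were not tested.

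For R206H without H3.1K27M, 0 genes and 0 receptors were called, against 26 genes with DESeq2, 14 with DESeq2 and a replicate block, 11 with all 12 samples in 1 fit, and 3683 genes and 4 receptors with limma voom and sample weights. Leaving out each replicate in turn gave 0 to 3485 genes and 0 to 4 receptors. For R206H with H3.1K27M, 3185 genes and 4 receptors were called, against 1627 genes with DESeq2 and a replicate block and 440 genes and 0 receptors with all samples in 1 fit, and leaving out each replicate gave 1915 to 2966 genes. The lowest came without replicate 3 of the double mutant, and 2015 came without replicate 2 of *ACVR1* WT with H3.1K27M. For H3.1K27M with *ACVR1* WT, 3533 genes and 4 receptors were called, against 6335 genes in 1 fit of all samples, 2023 with edgeR and a replicate block, and 9234 genes and 8 receptors with limma voom, and leaving out each replicate gave 1037 to 8115 genes and 1 to 8 receptors. For H3.1K27M with *ACVR1* R206H, 8745 genes and 7 receptors were called, and 4 receptors with all samples in 1 fit. *Pdgfrb* was called in this comparison when no minimum count was set. For the interaction, 11 genes and 0 receptors were called, against 97 genes with DESeq2, 85 genes and 1 receptor (*Egfr*) with DESeq2 and a replicate block, 2 genes with edgeR and a replicate block, 18 without a minimum count, and 4550 genes and 5 receptors with limma voom, and leaving out each replicate gave 3 to 4112 genes and 0 to 5 receptors.

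Samples with the same replicate number did not all deviate together. Over 15445 genes r was 0.25, 0.33 and -0.11 for R206H without H3.1K27M and between -0.03 and 0.061 in the other comparisons, so the numbers were not treated as pairs. With edgeR and a replicate block, 0, 5, 4 and 7 receptors were called in the 4 comparisons and 0 in the interaction, where *Ntrk2* was the added call (adjusted p = 0.017) for R206H with H3.1K27M. With DESeq2 and a replicate block, 3 and 6 receptors were called for H3.1K27M, with *Erbb3* lost in both backgrounds. *Erbb3* was measured on 18 to 64 counts and *Pdgfrb* on 1 to 25, which limits what can be said of both.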

Other observations

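Among 16 receptor tyrosine kinases outside these families, 12 were tested for H3.1K27M in either background, of which 3 rose and 1 fell with *ACVR1* WT (median log2 fold change 0.29, against 23.0% of all genes called), and 10 rose and 2 fell with *ACVR1* R206H (median 0.38, against 56.5% of all genes called). Without *ACVR1* WT replicate 1, 9 rose and 2 fell with *ACVR1* WT, and the log2 fold changes of *Ror2*, *Mertk* and *Tyro3* were 1.96, 1.04 and -0.67. *Ror2*, a WNT5A receptor, rose in both backgrounds (log2 fold changes 1.73 and 1.59, adjusted p = 0.0029 and 5.3e-08 by edgeR), as did *Mertk* (0.79 and 0.65, adjusted p = 0.031 and 7.5e-06). *Tyro3*, which belongs with *Mertk* to the TAM receptors that bind GAS6, fell in both (-0.66 and -1.05, adjusted p = 0.0023 and 3.7e-08). Of 13 tested between the *ACVR1* forms with H3.1K27M, 4 were higher with R206H (*Ror1*, *Ret*, *Ddr2* and *Ptk7*, by 0.16 to 0.83 on the log2 scale) and 1, *Tyro3*, was lower by -0.35, beside 20.3% of all genes called. Without H3.1K27M, 0 of 12 passed between the *ACVR1* forms by edgeR and 0 by DESeq2, with 2 at an unadjusted p under 0.05, beside 534 of 15066 genes. When *ACVR1* WT replicate 1 was left out, 4 were higher and 0 lower, beside 23.1% of all genes.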
